A study of Mus musculus with 6 samples.

Results

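The 9 genes described here carry dietary sugar from the gut lumen into the enterocyte and through its first step of breakdown: the brush border disaccharidases Sis, Mgam, Treh and Lct, the glucose transporters Slc5a1, Slc2a2 and Slc2a1, and the hexokinases Hk1 and Hk2. They were taken by symbol from a fixed list, and all 9 were found among the 21950 gene symbols listed in both deposited columns. Ileum, the small intestine before the colon, was taken from C57BL/6 mice 24 weeks old, 3 of them wild type and 3 TLR4ΔIEC. TLR4ΔIEC mice lack Toll-like receptor 4 (Tlr4), the receptor for bacterial lipopolysaccharide, in the epithelial cells of the intestine, while other cells of the gut wall keep the gene. Neither the Cre driver nor the deleted exons are named in the labels. The deposited value is average coverage, the mean number of reads over each base of a transcript, in 1 column for each genotype that stands for its 3 mice together. There is thus 1 value per gene and genotype, no spread between mice and no test. Every difference below is one between 2 pooled columns. Genotype cannot be told apart from anything else that may have differed between them, sequencing included.

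Starch and sugars are cut to single sugars by enzymes anchored in the microvilli of enterocytes. Glucose and galactose then enter the cell with sodium through SGLT1 (Slc5a1) and leave on the blood side through GLUT2 (Slc2a2), while hexokinase traps glucose that the cell itself uses by adding a phosphate. In the small intestine the disaccharidases, Slc5a1 and Slc2a2 are strongest in the jejunum and in mature villus cells, and lactase declines after weaning.

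The 2 columns were close in depth, with 22724 and 22687 transcript entries and summed coverage of 699800 and 698473 in wild type and TLR4ΔIEC. They were scaled to 1 another by the median ratio over genes and so that the mean of their totals was 1000000 units. Log2 ratios of TLR4ΔIEC to wild type were taken after 1 unit was added to each value, which shrinks the ratios of weakly covered genes. Tlr4 itself had a coverage of 1.98 (wild type) and 1.60 (TLR4ΔIEC), a log2 ratio of -0.27. That value covers the whole transcript in whole tissue and checks the genotype only weakly. Ileal markers were abundant in both columns: the ileal bile acid binding protein Fabp6 stood at 15350 units (wild type) and 13628 (TLR4ΔIEC), and the ileal bile acid transporter Slc10a2 at 93.0 and 93.7 units. Of 9 genes of the proximal small intestine, Apoa4, an apolipoprotein of fat absorption, was the highest at 633 and 278 units. The lowest were Gata4 (0.449 and 0.429 units) and Onecut2 (0.126 and 0.0993 units). Of 8 pancreatic genes listed in both columns, the colipase gene Clps was at 408 and 277 units, Cela1 at 6.89 and 11.1, and the other 6 ran from 0.118 to 1.60 units in wild type.

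The abundant apical machinery, Sis, Mgam and Slc5a1, was nearly level between the columns, with a summed 691 units (wild type) and 697 (TLR4ΔIEC). The basolateral exit transporter Slc2a2 was lower in the TLR4ΔIEC column, with a log2 ratio of -2.42 (-3.37 to -1.19 among the settings tried), but it is weakly covered, under the minimum set for the comparison, and its averages were taken over different lengths in the pools. In scaled units Treh was 1.80-fold lower. The hexokinase Hk2 was 2.29-fold higher. Hk1 was 1.58-fold higher, but it too is under the minimum and its averages were taken over different lengths. In bulk tissue, fewer cells of a type and less RNA per cell cannot be told apart.

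**Figure D1:**
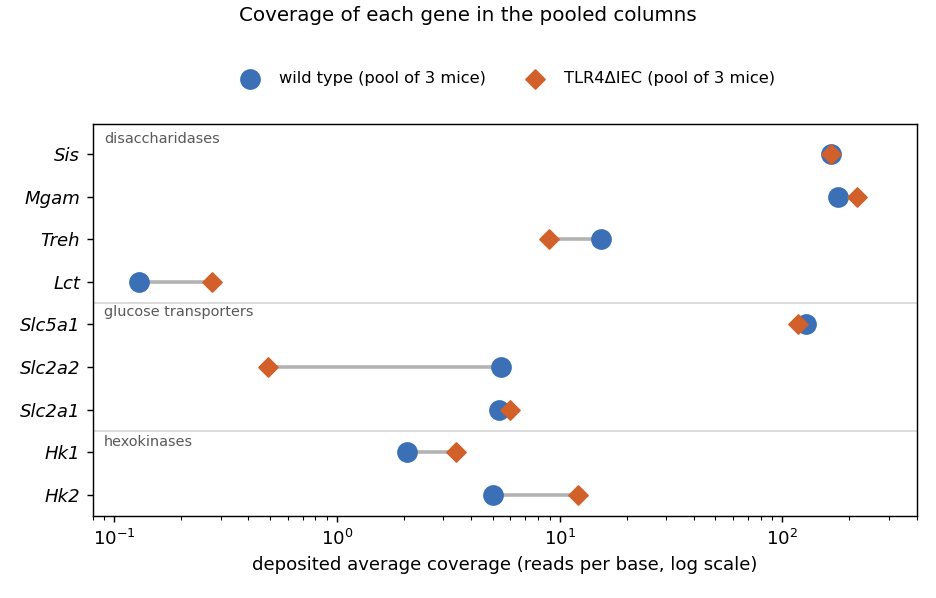
Deposited average coverage (log axis) of the 9 genes in the wild type pool (circles) and the TLR4ΔIEC pool (diamonds), with a line joining the values of 1 gene. Sis, Mgam and Slc5a1 sit above a coverage of 100 in both pools, Slc2a2 lies far to the left in TLR4ΔIEC (0.489 against 5.46), and Hk2 lies to the right (12.04 against 5.002).

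Of the 9 genes, 6 averaged 5 units or more, the minimum set for the comparison (a coverage of 3.41 (wild type) and 3.58 (TLR4ΔIEC)). Among these 6, Hk2 alone was at least 2-fold higher, 0 were lower by that factor, 3 lay above 0 and 3 below, and the median log2 ratio was 0.01. Over all 8891 genes that passed, 1.29% were higher by that factor, 2.79% were lower by it, 47.4% were below 0 and the median was 0.03. The median of the 6 genes therefore lay close to that of all genes. Slc2a2, Hk1 and Lct had means of 4.35, 3.90 and 0.29 units and did not reach the minimum. With the minimum at 1 unit, 8 genes passed, and 1 of them (Slc2a2) was lower by 2-fold or more and 1 (Hk2) higher, against 2.83% lower and 1.53% higher among 13428 genes.

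**Figure D2:**
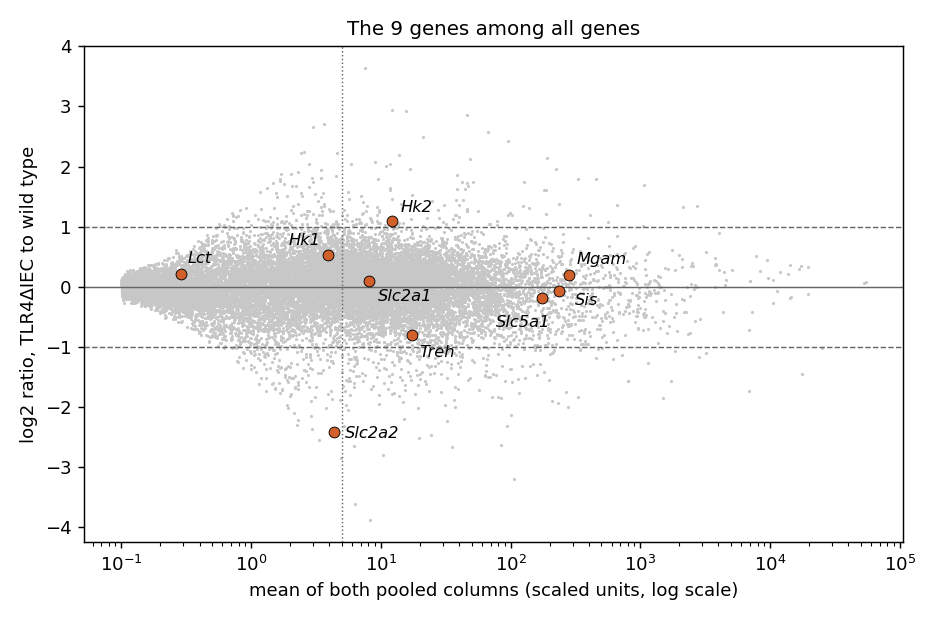
Log2 ratio of TLR4ΔIEC to wild type (vertical) against the mean of both pools in scaled units (log axis) for genes averaging 0.1 units or more, with the 9 genes labelled, the minimum of 5 units dotted and 2-fold differences dashed. Slc2a2 (-2.42) lies at the lower edge of the cloud just left of the minimum, Hk2 (1.10) lies above the upper dashed line, and Sis, Mgam and Slc5a1 lie near 0.

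The regulatory sequence just before the start of 4 of these genes is shown because they stand for genes of each kind: Sis and Mgam nearly level, Slc2a2 lower and Hk2 higher. Each is the 250 bases before the RefSeq start (GRCm38.p6, the assembly behind mm10), read 5′ to 3′ on the strand of the gene, with matches in capitals. Sis is at chr3:72967864-72968113 (minus strand), Mgam at chr6:40628581-40628830 (plus), Slc2a2 at chr3:28697653-28697902 (plus) and Hk2 at chr6:82774455-82774704 (minus).
Sis: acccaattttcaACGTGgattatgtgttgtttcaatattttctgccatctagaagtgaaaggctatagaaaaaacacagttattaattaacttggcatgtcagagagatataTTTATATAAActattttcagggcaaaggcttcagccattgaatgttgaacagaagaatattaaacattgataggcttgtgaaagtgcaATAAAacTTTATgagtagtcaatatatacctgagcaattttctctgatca
Mgam: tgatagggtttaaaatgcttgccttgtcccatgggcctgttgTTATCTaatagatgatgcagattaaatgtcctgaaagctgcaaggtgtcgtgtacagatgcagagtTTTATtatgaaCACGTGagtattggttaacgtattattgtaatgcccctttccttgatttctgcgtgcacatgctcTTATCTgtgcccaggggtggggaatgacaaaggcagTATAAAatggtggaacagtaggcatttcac
Slc2a2: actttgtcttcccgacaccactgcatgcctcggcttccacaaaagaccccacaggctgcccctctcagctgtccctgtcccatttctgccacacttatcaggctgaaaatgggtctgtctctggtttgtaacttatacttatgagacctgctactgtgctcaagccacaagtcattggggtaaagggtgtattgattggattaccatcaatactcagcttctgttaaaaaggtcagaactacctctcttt
Hk2: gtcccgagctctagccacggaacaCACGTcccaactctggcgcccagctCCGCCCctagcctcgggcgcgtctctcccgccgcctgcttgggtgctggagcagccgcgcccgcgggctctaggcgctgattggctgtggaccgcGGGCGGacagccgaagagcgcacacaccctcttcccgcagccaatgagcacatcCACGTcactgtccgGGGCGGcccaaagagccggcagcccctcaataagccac
Capitals mark exact matches, on either strand, to 5 short motifs, and the share of 32851 RefSeq promoter windows of the same length that hold each is given beside it. The letters TTTAT are the core bound by the intestinal factor CDX2 (37.3% of windows). The letters AGATAA make a site of the GATA factors (9.99%). The box written TATAAA (12.4%) positions the polymerase, and its last letters are the reverse complement of the CDX2 core, so both overlap. The letters ACGTG are the core of a hypoxia response element (16.6%), and a GC box reads GGGCGG (32.7%).

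Sis held 1 hypoxia core, 4 CDX cores and 2 TATA box matches, the last of which overlap 1 another. CDX2 is a textbook regulator of sucrase-isomaltase. Mgam held 2 CDX cores, 2 GATA sites, a TATA box 30 bases before the start and a palindromic CACGTG that counts as 2 hypoxia cores. Hk2 held 3 GC boxes and 2 hypoxia cores in a window of 69.6% G and C with 25 CG pairs, against 31.6% and 1 CG pair for Sis. Slc2a2 held none of the 5 motifs, which says only that these letters are not in this window. All 9 genes had a promoter entry. Of the other 5, Lct held 2 CDX cores and 2 GATA sites, Slc2a1 held 2 GC boxes and a hypoxia core, Slc5a1 held such a palindrome too, and Treh and both Hk1 starts held none. A match is a description of the sequence and not a bound site.

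Among the disaccharidases, sucrase-isomaltase and maltase-glucoamylase carried nearly all of the coverage. Sis (chromosome 3, 72888557 to 72967863, minus strand, 47 exons) splits sucrose and the branch points of starch. Its coverage was 165.1 (wild type) and 165.4 (TLR4ΔIEC), or 242 and 231 units after scaling, a log2 ratio of -0.07. The sums behind them were 971887 and 973418 read bases over 5887 bases of transcript, which is the length of the annotated transcript. Sis was therefore level between the pools, and its ratio turned to 0.04 with quantile normalization or with scaling to the sum without the 50 highest genes.

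Mgam (chromosome 6, 40628831 to 40769123, plus strand, 48 exons), which takes glucose from the ends of starch chains, had a coverage of 178 (wild type) and 215 (TLR4ΔIEC). In scaled units it stood at 261 and 301, a log2 ratio of 0.20, with 1156831 and 1397933 bases of reads over 6488 bases. It was the most covered of the 9 genes in both pools. Of 901 genes averaging 100 units or more, 228 had a ratio at least as high, so a difference of this size was common at that level. Since coverage is per base, the enzymes can be set side by side within a pool: Mgam was at 1.08 times the coverage of Sis in wild type and 1.30 times in TLR4ΔIEC. A pseudogene copy, Mgam2-ps, lies next to Mgam, and reads shared between copies cannot be assigned from these files.

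Treh (chromosome 9, 44673233 to 44686305, plus strand), whose product splits trehalose, the sugar of fungi and insects, was the disaccharidase with the lowest ratio of TLR4ΔIEC to wild type. Coverage was 15.4 (wild type) and 8.94 (TLR4ΔIEC), from 32937 and 19168 bases of reads over 2145 bases. In scaled units this was 22.5 and 12.5, a log2 ratio of -0.80, short of the 2-fold line. Of 5207 genes with a mean of 5 to under 20 units, 3.74% had a ratio as low. Treh thus went from 9.30% of the coverage of Sis in wild type to 5.40% in TLR4ΔIEC. Treh overlaps Phldb1 on the opposite strand (7.79 and 6.56 units), and no source used here states whether strand was used in counting.

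Lct (chromosome 1, 128284756 to 128328318, minus strand, 17 exons), the milk sugar enzyme, was barely covered in either pool. Its coverage was 0.129 (wild type) and 0.274 (TLR4ΔIEC), the lowest of the 9 genes in each. At 0.19 and 0.38 units no difference can be read from it.

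Of the transporters, SGLT1 stayed abundant while GLUT2 was weakly covered in the TLR4ΔIEC pool. Slc5a1 (chromosome 5, 33104219 to 33162870, plus strand, 15 exons) had a coverage of 128 (wild type) and 118 (TLR4ΔIEC), from 503523 and 462239 bases of reads over 3933 bases. It stood at 188 and 164 units, a log2 ratio of -0.19. Of 901 genes averaging 100 units or more, 373 had a ratio as low or lower, so Slc5a1 did not stand apart from genes of its level.

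Slc2a2 (chromosome 3, 28697903 to 28731359, plus strand, 11 exons) had a coverage of 5.46 (wild type) and 0.489 (TLR4ΔIEC). In scaled units these were 8.01 and 0.68. The log2 ratio was -2.42 with 1 unit added, and the ratio of the scaled values themselves was 11.7-fold. Of 4537 genes with a mean of 1 to under 5 units, 3 had a ratio as low or lower, Slc2a2 among them. In that band 2.91% were at least 2-fold lower. Slc2a2 lies near the top of the band (mean of 4.35 units). With 1 unit added, genes nearer the lower end cannot reach so low a ratio, so the count of 3 does not measure how rare the value is. Its rank in coverage went from 6990 in wild type to 14134 in TLR4ΔIEC, of 21950 genes.

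The Slc2a2 value rests on little sequence in the TLR4ΔIEC pool. The deposited averages are whole numbers of read bases divided by a length, and the smallest pairs that give them are 7019 bases over 1285 in wild type and 1125 bases over 2302 in TLR4ΔIEC, or multiples of these. No length near that of the transcript gives both values, so the 2 averages were not taken over the same stretch of the gene. The same held for Hk1 and Lct, while the other 6 genes shared 1 length between the pools. Among the settings tried, the ratio ran from -3.37 to -1.19, and it was at least 2-fold lower in each. The minimums could not change it, since they do not enter the ratio of a gene. The ways to merge entries left it at -2.42.

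Slc2a1 (chromosome 4, 119108711 to 119137983, plus strand, 10 exons), GLUT1, the transporter of most dividing cells and of red blood cells, did not follow Slc2a2. It had a coverage of 5.33 (wild type) and 5.99 (TLR4ΔIEC), from 13706 and 15419 bases of reads over 2572 bases. In scaled units it was at 7.81 and 8.38, a log2 ratio of 0.09. Within the pools, Slc2a2 was at 1.03 times the coverage of Slc2a1 in wild type and at 0.0815 times in TLR4ΔIEC. Against the apical carrier, Slc2a2 was at 4.27% of the coverage of Slc5a1 in wild type and 0.416% in TLR4ΔIEC. Both differences come mostly from Slc2a2 and share its limits, among them the unlike lengths behind its averages.

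Both hexokinases had higher values in the TLR4ΔIEC pool. Hk2 (chromosome 6, 82725025 to 82774454, minus strand, 18 exons), the inducible enzyme of muscle, fat and dividing cells, had a coverage of 5.002 (wild type) and 12.0 (TLR4ΔIEC), from 27568 and 66326 bases of reads over 5511 bases. It stood at 7.33 and 16.8 units, a log2 ratio of 1.10. Of 5207 genes with a mean of 5 to under 20 units, 39 had a ratio as high or higher, and 1.09% were at least 2-fold higher. With a pseudocount of 5 units the ratio was 0.82, under the 2-fold line.

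Hk1 (chromosome 10, 62268855 to 62379908, minus strand), the housekeeping hexokinase, had a coverage of 2.06 (wild type) and 3.42 (TLR4ΔIEC). At 3.02 and 4.78 units it was under the minimum, with a log2 ratio of 0.52. Of 4537 genes of its level, 531 had a ratio as high or higher, which makes it a common value there. It overlaps the antisense RNA Hk1os (0.58 and 1.08 units). Hk2 was at 2.43 times the coverage of Hk1 in wild type and 3.52 times in TLR4ΔIEC, though Hk1 had no shared length between the pools. The summed level of both was 10.4 units (wild type) and 21.6 (TLR4ΔIEC), small beside Hkdc1, a further hexokinase family member, at 57.4 and 66.0 units (log2 ratio 0.20).

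The order of the 9 genes by coverage was the same at the top and the bottom of both pools. Mgam, Sis and Slc5a1 came first in that order and Lct came last. Between them the order was Treh, Slc2a2, Slc2a1, Hk2 and Hk1 in wild type, where the coverages of Slc2a2, Slc2a1 and Hk2 lay between 5.002 and 5.46, too close to be ranked without replicates. In TLR4ΔIEC it was Hk2, Treh, Slc2a1, Hk1 and Slc2a2. Over all 9 genes the summed level was 739.96 units (wild type) and 740.1 (TLR4ΔIEC), a sum that is mostly Sis, Mgam and Slc5a1.

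The genes around these steps were described from lists by their counts and medians, beside the median of 0.03 and the shares of 2.79% lower and 1.29% higher over all genes. Other sugar transporters, a list that also holds related carriers of other solutes, had 6 of 18 genes above the minimum. Of these, 4 were above 0 and 2 below, 0 were past 2-fold and the median was 0.09. Slc5a8, a sodium-coupled carrier of short chain fatty acids, was at 35.2 and 38.0 units in wild type and TLR4ΔIEC. The fructose transporter Slc2a5 was at 12.2 and 9.60 units, and the inositol carrier Slc5a11, named after its value was seen, at 9.93 and 4.73.

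Other hexose kinases had 5 of 7 genes above the minimum, with 1 past 2-fold in each direction. The lower was the fructose kinase Khk (171 units (wild type) and 58.3 (TLR4ΔIEC), log2 ratio -1.54). The higher was the ADP-dependent glucokinase Adpgk, named after its value was seen, at 2.96 and 7.62 units. Adpgk passed the minimum only through its TLR4ΔIEC value. Of 22 genes of glycolysis after hexokinase, 16 passed, 9 were below 0 and 7 above, and the median was -0.27. One was at least 2-fold lower, Pfkfb4 (31.9 and 13.8 units), which sets the level of a glycolysis activator. Tpi1 (-0.61) and Pklr (-0.52) were within 2-fold. Ldhb, a lactate dehydrogenase subunit, had the highest ratio of those that passed (0.51, at 9.53 and 14.0 units), followed by the mutase gene Pgam1 (0.32) and the enolase gene Eno1 (0.27). The list was thus mixed in direction.

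Genes that release glucose from the cell or handle fructose were lower in the TLR4ΔIEC pool: 11 of 12 measured were below 0, 4 were at least 2-fold lower and the median was -0.54. This list shares Khk and other members with the lists above. Glucose 6-phosphatase (G6pc), whose product is the free glucose that GLUT2 exports, was at 12.4 and 1.53 units, a log2 ratio of -2.41. That gene passed the minimum only through its wild type value. It and Fbp1 (23.9 and 8.33 units), a gluconeogenic phosphatase, were named after their values were seen. Slc37a4, which carries glucose 6-phosphate to G6pc, was at -0.92, Dak, a kinase of the fructose pathway, at -1.04 and Pck1 at -0.55. Of the 6 measured genes of glycogen turnover and of other alpha-glucosidases, 0 were past 2-fold, with Ganab, an enzyme of glycoprotein folding, at 0.56, Pygb at 0.40 and Pgm1 at -0.48.

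**Figure D3:**
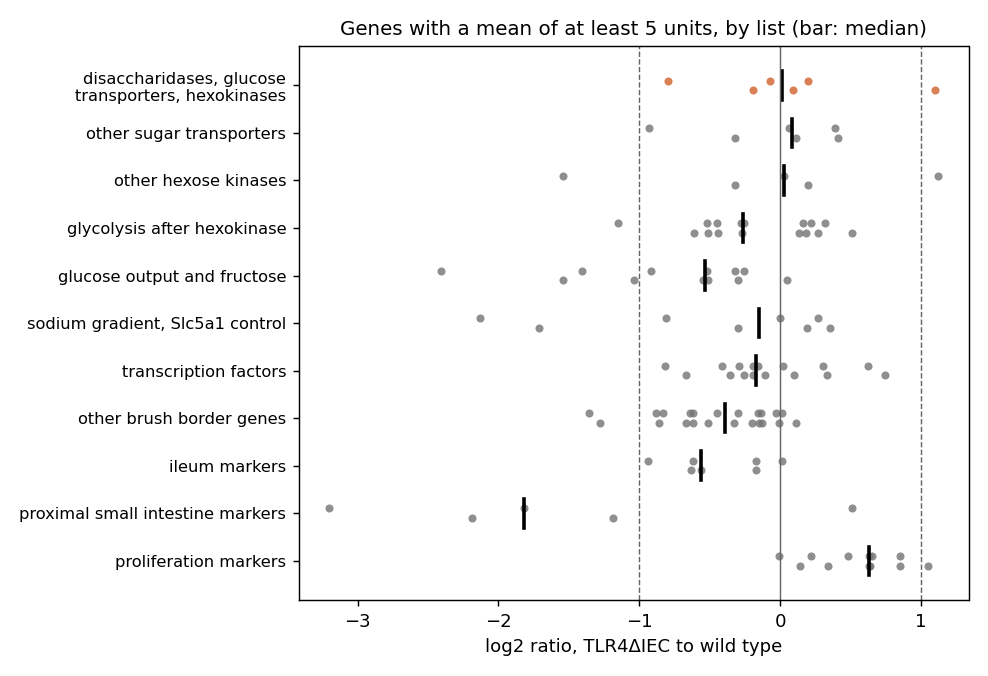
Log2 ratio of TLR4ΔIEC to wild type for genes averaging 5 units or more, 1 dot per gene, by list, with bars for medians and dashed lines at 2-fold. The top row holds the 6 genes described here that passed (median 0.01), and the rows of glucose output and of proximal small intestine markers lie mostly to the left (medians -0.54 and -1.82).

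The machinery on which Slc5a1 depends was mixed. The sodium pump subunit Atp1b1 was at 245 and 280 units (log2 ratio 0.19). The kinase Sgk1, which raises sodium transport, was at 61.2 and 18.1 units (log2 ratio -1.71), and the brush border scaffolds Pdzk1 (-2.13) and Slc9a3r1 (-0.81) were also lower. The list had 8 measured genes, 4 above 0 and 4 below, 2 of them at least 2-fold lower.

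Transcription factors tied to these promoters were all within 2-fold, 6 of 16 above 0 and 10 below, with a median of -0.18. Cdx2 was at 129 units (wild type) and 138 (TLR4ΔIEC). Mlxipl, the glucose-sensing factor ChREBP, had the lowest ratio of the list (-0.82), followed by Klf4 (-0.67), Cdx1 (-0.41) and Mlx (-0.36), the partner of ChREBP. The largest ratios above 0 were those of Myc (0.74) and Hif1a (0.62), named after their values were seen. Both are known regulators of hexokinase genes, and any part of theirs in the hexokinase values was not tested.

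Other brush border genes gave the setting for the disaccharidases. Of 22 measured, 20 were below 0, 2 were past 2-fold, both lower, with a median of -0.39. Alkaline phosphatase Alpi (-1.36), the transferase Ggt1 (-1.28) and the peptidase Naaladl1 (-0.88) had the lowest ratios named by the rule, while the microvillus protein Vil1 was at -0.01. The log2 ratios of Sis, Mgam and Slc5a1, from -0.19 to 0.20, lay above that median, and that of Treh lay below it. Vil1 lay in the same range, as did Anpep (-0.13), Dpp4 (-0.15), Mep1b (0.11), Ace (-0.14), Lgals4 (-0.03), Myo1a (-0.16) and Krt20 (0.01). A level value was thus not particular to Sis, Mgam and Slc5a1.

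Markers of gut position, of other cell types and of growth differed between the same pools, and their part in the values above was not tested. Beside Slc2a2 and Treh, 4 of 5 measured markers of the proximal small intestine were at least 2-fold lower. Among them were Fabp1 (192 and 20.03 units), Rbp2 (-1.82) and Apoa4 (-1.19). So was Cyp3a11 (25.2 and 4.74 units), which passed the minimum only through its wild type value. The other measured one, Slc40a1, was at 0.51. Under the minimum, Cybrd1 (0.72) and Adh6a (0.79) lay above 0, while Gata4 (-0.02) and Onecut2 (-0.04) lay close to 0. The 9 listed summed to 1379 units (wild type) and 470 (TLR4ΔIEC). The 7 ileum markers summed to 16647 and 14662 units, with 6 of 7 below 0, 0 past 2-fold and Amn lowest at -0.94. Beside Hk2 and Hk1, 11 of 12 proliferation markers were above 0 (258 and 363 units summed, Mcm6 at 1.05). Of 11 measured leukocyte markers, 9 were above 0 (965 and 1761 units summed over 12, Lyz2 at 1.01). All 6 measured globin genes were at least 2-fold higher (259 and 594 units summed over 8 red cell markers), several of them near-identical copies. Muscle markers summed to 891 and 1046 units over 7 genes, 7 of 7 above 0. By contrast, 4 of 5 measured adipose markers were at least 2-fold lower (231 and 112 units summed over 7, Fabp4 at -0.85). Of these, Adipoq (9.63 and 3.42 units) and Cfd (13.4 and 3.44) passed the minimum only through their wild type values. The adipose markers under the minimum, Plin1 (-0.46) and Lep (-0.20), were within 2-fold. No marker listed in both columns was at 0, and not every marker was listed in both, the pancreatic marker Prss2 among those listed in 1 column only.

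**Figure D4:**
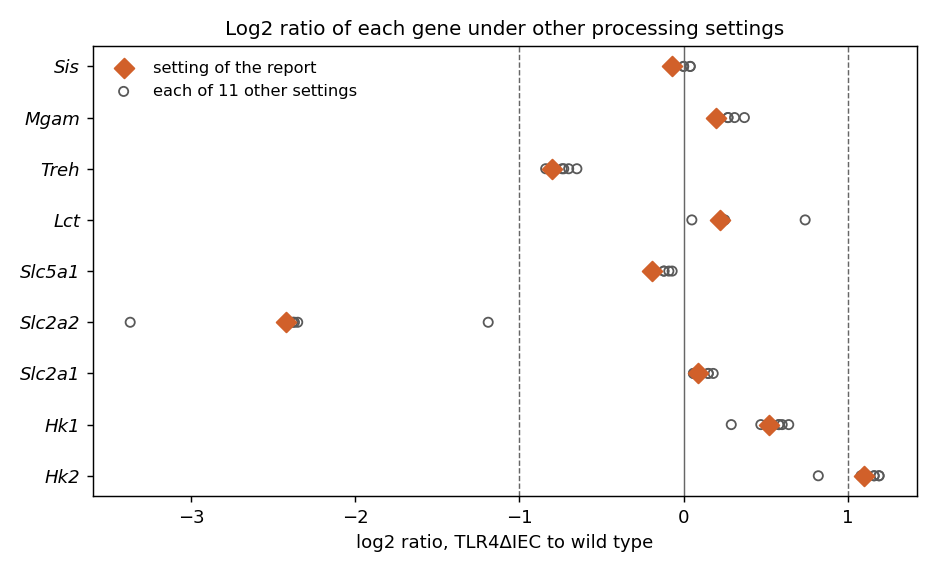
Log2 ratio of TLR4ΔIEC to wild type for each of the 9 genes under the setting used here (diamonds) and under 11 other settings of scaling, pseudocount, minimum and handling of repeated entries (circles), with dashed lines at 2-fold. Slc2a2 stays left of the lower dashed line in all of them (-3.37 to -1.19), Hk2 ranges from 0.82 to 1.19, and Sis lies on either side of 0. The minimum does not enter the ratio of a gene, so those circles repeat the diamond.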

How the data were processed

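The authors deposited a signal, the average coverage of each RefSeq entry (per the file headers), in 1 column per genotype that the labels assign to all 3 mice. Per the submitters' processing notes, which state no roles, the tools were Bowtie2 2.1.0 and TopHat2 2.0.10 and the build was mm10. No source used here gives the coverage tool, the read length or the use of strand, so coverage was not turned into reads and no counting intervals are given. Per the labels' protocols, RNA was depleted of ribosomal RNA and made into strand-specific Ion Torrent libraries.

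The 22001 entries listed in both columns gave 21950 symbols, and the strongest entry stood for a repeated symbol. Entries in only the wild type column (723) or only the TLR4ΔIEC column (686) were left out. Columns were scaled by the median of ratios (1.05) to a mean total of 1000000 units, with a pseudocount of 1, a minimum mean of 5 units and a 2-fold line. Lengths behind the averages were sought up to 30000 bases (relative tolerance 2e-12). Named genes were the 9 genes, Tlr4, and from each list up to 4 genes (markers up to 3) with the largest absolute ratio at a mean of at least 20 units, or the highest and lowest where none reached that. Slc2a5, Atp1b1, Cdx2, Vil1, Fabp6, Slc10a2, Cela1, Ldhb, Pgam1 and Eno1 fall outside this rule. So do Slc40a1, Cybrd1, Adh6a, Gata4, Onecut2, Cyp3a11, Adipoq, Cfd, Plin1 and Lep. The same holds for Anpep, Dpp4, Mep1b, Ace, Lgals4, Myo1a and Krt20. All of these were named after their values were seen, like those marked so in the text. Some genes that the rule selects are not reported here. Members and lists were chosen with earlier results of these data known. Coordinates are from GENCODE vM21 (mm10). Alternatives were 4 scalings, 2 pseudocounts, 3 minimums and 2 ways to merge entries. Scaling and ratios were tested on simulated data. Python 3.11.15, numpy 2.4.6 and pandas 2.3.3 were used.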

Additional observations from a re-analysis of the deposited data

How the results depend on the processing

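No value per mouse was used, so no replicate could be left out, and the depth of each value is known only as bases of reads for the 6 genes whose averages shared a length. No paired analysis was possible because each genotype is 1 pooled column. Across 11 alternatives, a ratio was taken to have moved when it changed by over 1.5 times. For the 9 genes, only Slc2a2 moved, to -1.19 with a pseudocount of 5 units and to -3.37 with 0.1 units. The 3 minimums do not enter the ratio of a gene and could not move it. The 2 ways to merge entries left all 9 ratios as they were. The sign changed for Sis alone, to 0.04 under 2 scalings. The number of the 9 genes at least 2-fold higher was 0 instead of 1 with a pseudocount of 5 units or a minimum of 20 units, which leaves 3 of them, and the number at least 2-fold lower was 1 instead of 0 with a minimum of 1 unit or none. Over all genes, 248 were at least 2-fold lower and 115 higher. These numbers were 146 and 65 with a pseudocount of 5 units, 380 and 206 with a minimum of 1 unit, 130 and 58 with a minimum of 20 units, and 395 and 222 with none. The share higher among genes past 2-fold was 31.7%, and it was 44.9% (189 lower, 154 higher) with scaling to the sum without the 50 highest genes, 41.4% (205 and 145) with scaling to the sum and 41.1% (206 and 144) with no scaling. The median of the proximal small intestine markers was -1.82, and -1.19 or -0.04 with a minimum of 1 unit or none, which brings in weakly covered members.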
